A study of Mus musculus with 6 samples.

Results

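The genes described here are the liver-made coagulation factors other than fibrinogen, their circulating inhibitors and plasminogen. They were chosen by name: the procoagulant factors F2, F5, F7, F9, F10, F11 and F12, the anticoagulant genes Proc and Serpinc1, and Plg. These are 10 of the 55487 genes in the count table, each matched by its Ensembl identifier to a mouse symbol, and all 10 were among the 14046 genes that passed the filter on low counts. The libraries came from whole livers of wild-type male C57BL/6J mice on a normal chow diet, taken at 17 weeks of age. The 3 mice of the GalNAc-siRnf10 group had received subcutaneous injections of a small interfering RNA against Rnf10 carrying an N-acetylgalactosamine (GalNAc) ligand. The 3 mice of the GalNAc-siNC group had received a control small interfering RNA with the same ligand, so that every mouse was given a GalNAc conjugate and no untreated liver was compared. The ligand is taken up through the asialoglycoprotein receptor of hepatocytes, the cells that make most of the proteins described here. Each library came from a different mouse, and the spread between libraries therefore includes that between animals.

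Blood clotting is a chain of serine proteases that circulate as inactive precursors and activate each other by cleavage. Tissue factor with factor VII starts the extrinsic branch, factors XII, XI and IX form the intrinsic branch, and both meet at factor X, which with its cofactor factor V cleaves prothrombin to thrombin. Thrombin then makes fibrin from fibrinogen. Antithrombin and activated protein C hold the chain in check, and plasmin, made from plasminogen, dissolves the clot. Hepatocytes secrete nearly all of these precursors, and the vitamin K-dependent ones are carboxylated on glutamate residues before secretion.

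The libraries held between 26854377 and 33058645 counts. Values below are normalized counts, that is counts scaled with trimmed mean of M-values (TMM) factors to a common library of 29667449. Rnf10, the targeted gene, had normalized counts of 3869, 4536 and 4040 in the GalNAc-siNC mice and 1738, 1820 and 1793 in the GalNAc-siRnf10 mice. It was 57% lower (log2 fold change -1.22, edgeR quasi-likelihood test, Benjamini-Hochberg adjusted p = 3.29e-09). Genes were called at an adjusted p under 0.05 over all tested genes, and 14.0% of the tested genes passed. Of these, 943 were higher and 1022 lower in the GalNAc-siRnf10 mice, or 6.71% and 7.28% of the genes tested. With library size alone as the scaling, the same split was 747 higher and 1381 lower.

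Among the 10 genes, Plg fell and no other gene passed the test. This count of 1 compares with 25.7% called among genes whose normalized counts averaged 1000 or more, the abundance class to which all 10 genes belong, and with 12.3% called lower in that class. Of the 9 genes that did not pass, 6 had a log2 fold change below 0 and 3 above it. The median over the 10 genes was -0.053 on the log2 scale, against 0.0022 over all tested genes. At an unadjusted p under 0.05 (edgeR) the count was likewise 1 of 10, beside 3754 of the 14046 tested genes.

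Per kilobase of gene length, Plg had the highest level of the 10 genes in the GalNAc-siNC mice, at 24898 ± 1144 normalized counts per kilobase (SD, n = 3). It was followed by F2 at 12736 ± 728 and F12 at 8179 ± 800. Serpinc1 stood at 6875 ± 157, Proc at 5841 ± 606 and F10 at 5610 ± 449. The lower end was made up of F9 at 2826 ± 206, F5 at 2530 ± 269, F7 at 2112 ± 135 and F11 at 1659 ± 67.3. The highest level was 15 times the lowest. The gene length was the one given with the counts, from 1859 bases for F7 to 8546 for Serpinc1. It may differ from that of the transcripts made in liver, so the order and this fold depend on it. The order of the means was the same in the GalNAc-siRnf10 mice, where Plg stood at 20050 ± 59.8 and F2 at 12157 ± 92.5. Proc and F10, and likewise F9 and F5, were neighbours whose mice overlapped in the GalNAc-siNC group, so these pairs could not be told apart there. In the GalNAc-siRnf10 group no neighbouring pair overlapped.

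**Figure D1:**
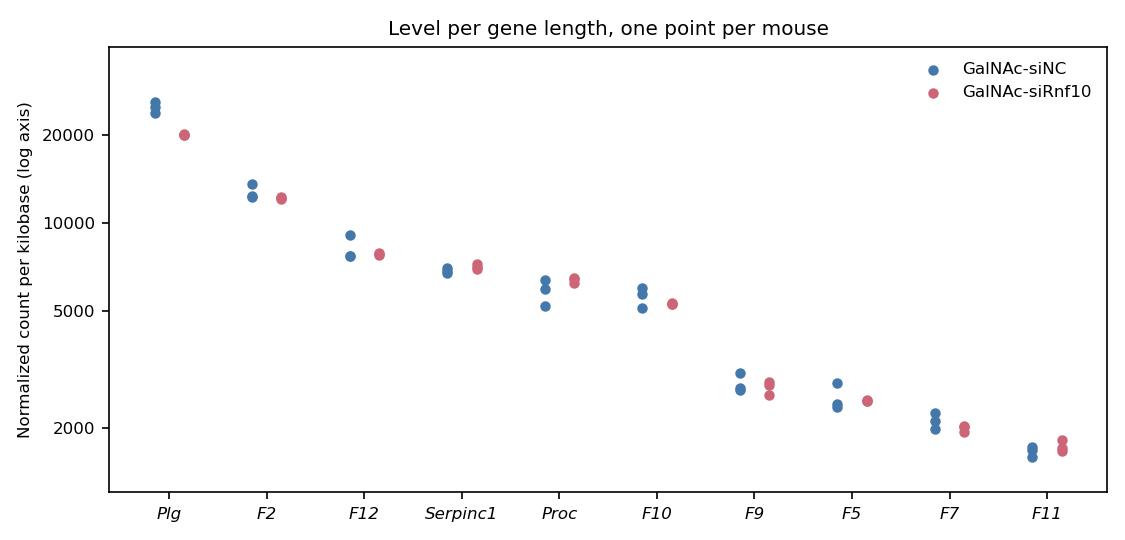
Level of each gene as normalized counts per kilobase of gene length on a log axis, with 1 point per mouse (GalNAc-siNC to the left in blue, GalNAc-siRnf10 to the right in red). The order of the genes is the same in both groups, and Plg, the highest, is the gene whose groups stand furthest apart.

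Plg encodes plasminogen, the precursor of the protease plasmin that cuts fibrin. In the files' GRCm38 annotation it lies on the plus strand of chromosome 17 at chr17:12378608-12419385 (ENSMUSG00000059481). Its normalized counts were 92701, 96483 and 88007 in the GalNAc-siNC mice and 74197, 74380 and 74638 in the GalNAc-siRnf10 mice. The groups did not overlap, and the highest GalNAc-siRnf10 mouse lay well under the lowest control. The means were 92397 ± 4246 and 74405 ± 222 (SD, n = 3 each), and Plg was 19.5% lower with a 95% interval of 13.4% to 25.1%. The log2 fold change was -0.31 with an SE of 0.0496 (edgeR, adjusted p = 0.000326). An exact two-sided permutation test over the 6 mice gave p = 0.1, which is the smallest that the 10 ways of dividing them can give. Plg was called in 16 of 16 processing alternatives, with an adjusted p between 2.67e-08 and 0.00924 in edgeR, DESeq2 or limma. In these whole-liver libraries, fewer cells of a type and less RNA per cell cannot be told apart. Exons of Slc22a3 on the opposite strand overlap those of Plg over 420 bases, and Slc22a3 had 171 to 253 counts per library.

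Plg was set against the other 9 genes within each library, a comparison chosen after the values were seen that needs no scaling between libraries. The ratio of Plg to each of the others, from counts per kilobase, was lower in every GalNAc-siRnf10 mouse than in any GalNAc-siNC mouse for 9 of 9 genes. The difference in the mean log2 ratio ranged from -0.23, against F7 and F10, to -0.44, against Proc. The ratio of Plg to Proc was 26.5% lower, and its log2 was 2.27, 2.03 and 1.99 in the GalNAc-siNC mice against 1.64, 1.63 and 1.69. Each ratio had an exact permutation p of 0.1, and since all 9 share Plg they are not separate tests. Plg was picked as the gene that fell while the other 9 were not called, so lower mean ratios follow from that choice. As a share of all counts in a library, Plg took 0.322%, 0.329% and 0.298% in the GalNAc-siNC mice and 0.244%, 0.246% and 0.249% in the GalNAc-siRnf10 mice.

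**Figure D2:**
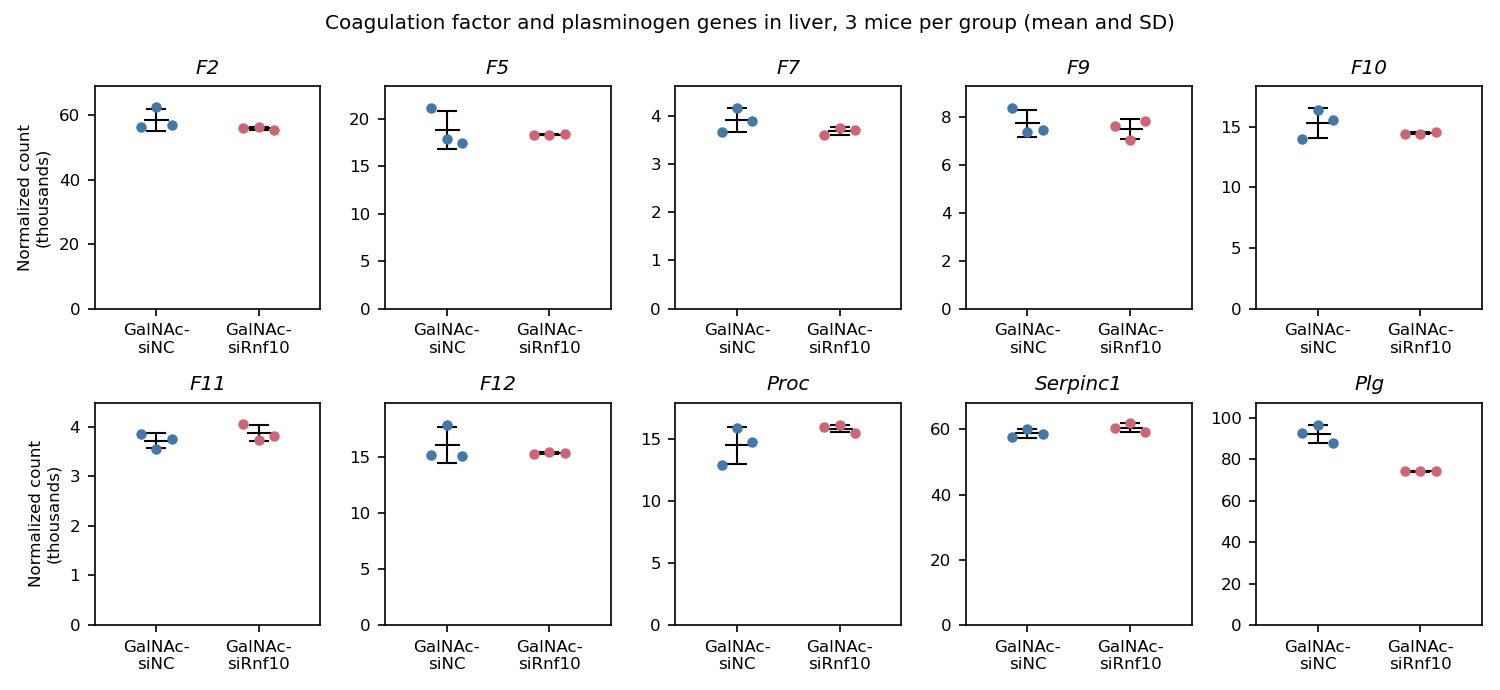
Normalized counts, divided by 1000, of the 10 genes, with 1 point per mouse and the mean and SD of each group in black; each vertical axis starts at 0. For Plg all 3 GalNAc-siRnf10 mice lie between 74197 and 74638, under the lowest control at 88007, whereas the groups of the other genes overlap or, for F2, nearly touch.

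The enzymes and cofactor of the common pathway showed no change that passed the test. F2, which encodes prothrombin, had normalized counts of 56403, 62367 and 56756 in the GalNAc-siNC mice and 55851, 56270 and 55420 in the GalNAc-siRnf10 mice. The groups did not overlap, as for 32.8% of all tested genes, but the lowest GalNAc-siNC and the highest GalNAc-siRnf10 mouse nearly touched, and they overlapped when no filter on low counts was used. Its log2 fold change was -0.067 with a 95% interval of -0.18 to 0.043 (edgeR, adjusted p = 0.45). F10, the protease at which both branches meet, had 13989, 16401 and 15571 against 14400, 14417 and 14523, with the GalNAc-siRnf10 mice inside the range of the controls. Its log2 fold change was -0.085 with an interval of -0.21 to 0.043 (edgeR, adjusted p = 0.403). Without the first GalNAc-siNC mouse, the lowest of its group for F10, the value was -0.15 and the gene was called (edgeR, adjusted p = 0.00998). F5, the cofactor of activated factor X, had 21097, 17872 and 17436 against 18270, 18267 and 18408. The first GalNAc-siNC mouse stood above all others for F5, and the log2 fold change was -0.038 (edgeR, adjusted p = 0.763), or 0.051 without that mouse.

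The intrinsic branch gave small differences of both signs. F12, whose product starts the contact pathway on charged surfaces, had normalized counts of 15162, 17840 and 15088 in the GalNAc-siNC mice and 15253, 15437 and 15340 in the GalNAc-siRnf10 mice. The second GalNAc-siNC mouse was set apart from all the rest, and the log2 fold change of -0.063 (edgeR, adjusted p = 0.58) was 0.019 without it. F11, whose product is activated next and cleaves factor IX, had 3848, 3552 and 3751 against 4052, 3733 and 3817. Its groups overlapped, with a log2 fold change of 0.057 and an interval of -0.077 to 0.19 (edgeR, adjusted p = 0.622). F9, the factor missing in hemophilia B, had 8372, 7347 and 7460 against 7631, 7038 and 7819, with a log2 fold change of -0.044 and an interval of -0.18 to 0.093 (edgeR, adjusted p = 0.721). F7, the protease that pairs with tissue factor in the extrinsic branch, had 3684, 4183 and 3909 against 3603, 3759 and 3725. These values overlapped, and the log2 fold change was -0.087 with an interval of -0.22 to 0.05 (edgeR, adjusted p = 0.43).

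The anticoagulant genes had higher means in the GalNAc-siRnf10 mice, without passing the test. Proc encodes protein C, the precursor of the protease that inactivates factor V, and its normalized counts were 12854, 15820 and 14750 in the GalNAc-siNC mice and 15906, 16061 and 15463 in the GalNAc-siRnf10 mice. The groups overlapped only through the second GalNAc-siNC mouse. The log2 fold change was 0.13 with an interval of -0.014 to 0.27 (edgeR, adjusted p = 0.237). Proc was the gene closest to the threshold after Plg. It passed without the second GalNAc-siNC mouse, at 0.19 (edgeR, adjusted p = 0.0444), and after correcting for GC content and gene length, at 0.17 (edgeR, adjusted p = 0.0044). Serpinc1 encodes antithrombin, the main inhibitor of thrombin and activated factor X. It had 57563, 60213 and 58487 against 60544, 61802 and 59318, with overlapping groups and a log2 fold change of 0.044 (edgeR, adjusted p = 0.619). Exons of Zbtb37 on the opposite strand overlap those of Serpinc1 over 2942 bases, with 262 to 431 counts per library for Zbtb37. For the 9 genes that did not pass, the 95% intervals reached from 14.4% lower, for F7, to 20.4% higher, for Proc, so changes within those bounds were not resolved with 3 mice per group.

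**Figure D3:**
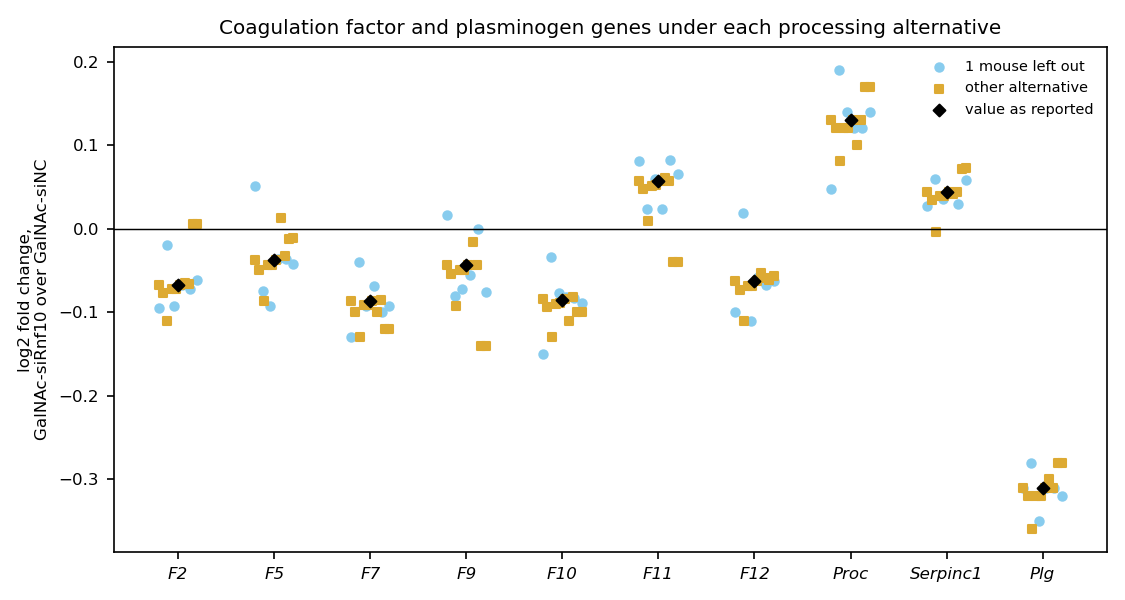
Log2 fold change of each gene as reported (black diamonds), with 1 mouse left out (blue circles) and under the other processing alternatives (yellow squares). Plg lies between -0.36 and -0.28 throughout, Proc, F7 and F10 keep their sign, and F2, F5, F9, F11, F12 and Serpinc1 cross 0.

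The 10 genes varied less between mice in the GalNAc-siRnf10 group than in the control group. The coefficient of variation was smaller in the GalNAc-siRnf10 mice for 9 of 10 genes, F11 being the exception. Its median was 6.82% in the GalNAc-siNC and 1.36% in the GalNAc-siRnf10 mice (11.1% and 7.33% over all tested genes), and the range was 2.29% to 10.6% in the GalNAc-siNC mice and 0.298% to 5.44% in the GalNAc-siRnf10 mice. F5 gave one of the widest contrasts, with 10.6% against 0.439%. This was a feature of the libraries as a whole, since 66.1% of tested genes had the smaller value in the GalNAc-siRnf10 group, and 85.5% of those averaging 1000 normalized counts or more. The first GalNAc-siNC mouse was the lowest of its group for 5 of the 10 genes and the highest for 3.

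Promoter sequence from RefSeq (GRCm38.p6, 250 bases before to 50 after each start) was matched for 8 of the 10 genes. Plg had no promoter entry and was not searched. Sequence is shown for F7 and F9, the ones that held a searched motif. The motif CAAAGGTCA is a direct-repeat form bound by HNF4, the nuclear receptor that drives many hepatocyte genes. It was found, on either strand, in 2 of 8 promoters and in 0.478% of all 32851 promoters of that length. Capitals mark the match, which in F7 is the reverse complement and lies 34 to 26 bases before the start, and which in F9 ends on the first base of the transcript.
F7, chr8:13025970-13026020, plus strand: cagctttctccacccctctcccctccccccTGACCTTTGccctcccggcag
F9, chrX:59999426-59999464, plus strand: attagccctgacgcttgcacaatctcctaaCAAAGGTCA
The other motifs searched on both strands were CAAAGTCCA for HNF4, TTGCGCAA for C/EBP and GTTAATNAT for HNF1. None of the 8 promoters held one of these, against 0.475%, 0.183% and 0.801% of all promoters. A match describes the letters only. Hnf4a itself had normalized counts of 13654, 14189 and 13382 in the GalNAc-siNC mice and 14684, 14605 and 14309 in the GalNAc-siRnf10 mice. Its log2 fold change of 0.081 did not pass (edgeR, adjusted p = 0.352), and neither F7 nor F9 was called.

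Among 10 liver transcription factors that act on hepatocyte genes, 2 fell and none rose, beside 7.28% called lower and 6.71% called higher over all tested genes. With 10 genes, this count is not set apart from that background. Foxa1, a pioneer factor that opens liver chromatin, fell from 797, 864 and 773 to 500, 461 and 430 normalized counts, a log2 fold change of -0.81 (edgeR, adjusted p = 1.16e-05). Foxa2, its close relative, fell from 830, 1018 and 902 to 701, 629 and 579, a log2 fold change of -0.53 (edgeR, adjusted p = 0.00135). For both genes the groups did not overlap. Cebpb, an acute phase regulator, had 1648, 3966 and 3141 against 4302, 4065 and 4621, without overlap and with the first GalNAc-siNC mouse far under the rest. The log2 fold change of Cebpb, 0.57, did not pass (edgeR, adjusted p = 0.402).

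The other genes of the clotting pathway were taken from 4 lists holding 38 genes, of which 34 were tested. Of these, 10 fell, 24 did not pass and none rose, with a median log2 fold change of -0.13 against 0.0022 over all tested genes. Over all tested genes 7.28% were called lower, and 12.3% of those averaging 1000 normalized counts or more. In the list of contact system and further plasma clotting genes, 5 of 10 fell. Serpina10 encodes the protein Z-dependent inhibitor of activated factor X. It had normalized counts of 16628, 17544 and 17140 in the GalNAc-siNC mice and 9822, 9909 and 9961 in the GalNAc-siRnf10 mice, clearly apart, and was 42.1% lower (log2 fold change -0.79, edgeR, adjusted p = 1.45e-08). Proz, its cofactor protein Z, had a log2 fold change of -0.095 (edgeR, adjusted p = 0.326). Serping1, the C1 inhibitor that also blocks factor XII and plasma kallikrein, fell from 43031, 39510 and 38029 to 32684, 33022 and 30548, or by 20.2% (edgeR, adjusted p = 0.000811). C4bp, a complement regulator, fell from 30114, 28435 and 29373 to 24608, 24512 and 25174, or by 15.5% (edgeR, adjusted p = 0.00318). The kininogen genes Kng1 and Kng2 were called with falls of 11.2% and 12.9%, but they are near-identical copies between which reads may be shared, and Kng1 was called in 11 and Kng2 in 13 of 16 alternatives.

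Genes that act on plasminogen and plasmin were read beside Plg. In the list of plasminogen activation and its inhibitors, 3 of 10 tested genes fell and none rose, while Plaur did not pass the filter. The share called lower was 7.28% over all tested genes and 12.3% among those averaging 1000 normalized counts or more. Serpinf2 encodes alpha-2-antiplasmin, the fast inhibitor of plasmin, and had 34610, 38125 and 36954 against 28922, 29482 and 28849. It was 20.5% lower, with groups that did not overlap (log2 fold change -0.33, edgeR, adjusted p = 0.000327). The log2 ratio of Plg to Serpinf2 within a library was 0.66 ± 0.085 in the GalNAc-siNC mice and 0.68 ± 0.019 in the GalNAc-siRnf10 mice (SD, n = 3 each, exact permutation p = 0.8). Cpb2, the carboxypeptidase that trims the lysines to which plasminogen binds on fibrin, fell from 18790, 16366 and 17239 to 14019, 13723 and 13335, or by 21.6% (edgeR, adjusted p = 0.000524). Serpine2, protease nexin-1, fell from 372, 382 and 343 to 267, 249 and 255, or by 29.8% (edgeR, adjusted p = 0.00445). The plasminogen activators themselves were low in liver, with Plat at 16.7 ± 5.48 and Plau at 19.2 ± 1.42 normalized counts in the GalNAc-siNC mice (SD, n = 3), and neither passed.

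Of the 7 genes of the vitamin K cycle, processing and secretion, 1 fell, beside 7.28% called lower over all tested genes. With 7 genes, this count is not set apart from that background and is no result about the list. Ggcx, the carboxylase that acts on prothrombin and factors VII, IX and X, had 2721, 2526 and 2216 against 2023, 2086 and 2071. It was 17.2% lower (edgeR, adjusted p = 0.0236), and was called in 12 of 16 alternatives. On the vessel wall and platelet side, likewise 1 of 7 tested genes fell, and F13a1, Procr and F2rl3 did not pass the filter. The gene was F3, tissue factor, with 202, 235 and 192 against 103, 109 and 132 normalized counts, or 45.2% lower (edgeR, adjusted p = 0.000849). The groups did not overlap. In this list 4 tested genes had a log2 fold change above 0 and 3 below it, with a median of 0.20. The count of 1 is likewise not set apart from the 7.28% and is no result about the list.

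**Figure D4:**
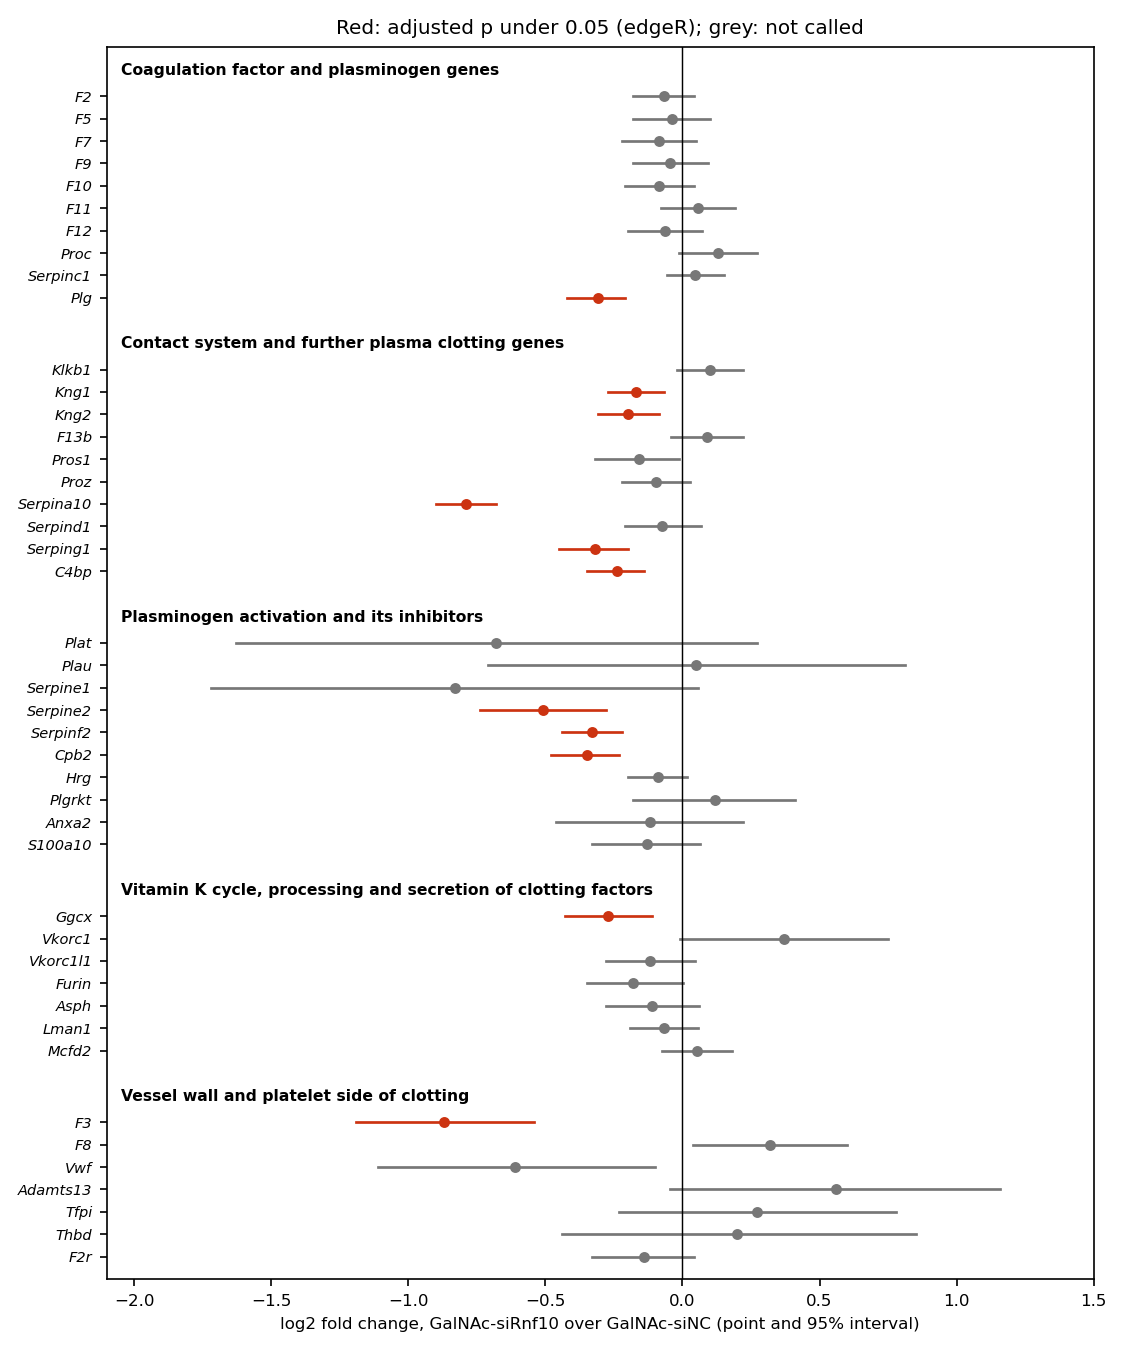
Log2 fold change of GalNAc-siRnf10 over GalNAc-siNC with its 95% interval for the 10 genes and the tested genes of the other clotting lists; red marks an edgeR adjusted p under 0.05. All red points lie to the left of 0, with Plg at -0.31, Serpina10 at -0.79 and F3 at -0.87.

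**Figure D5:**
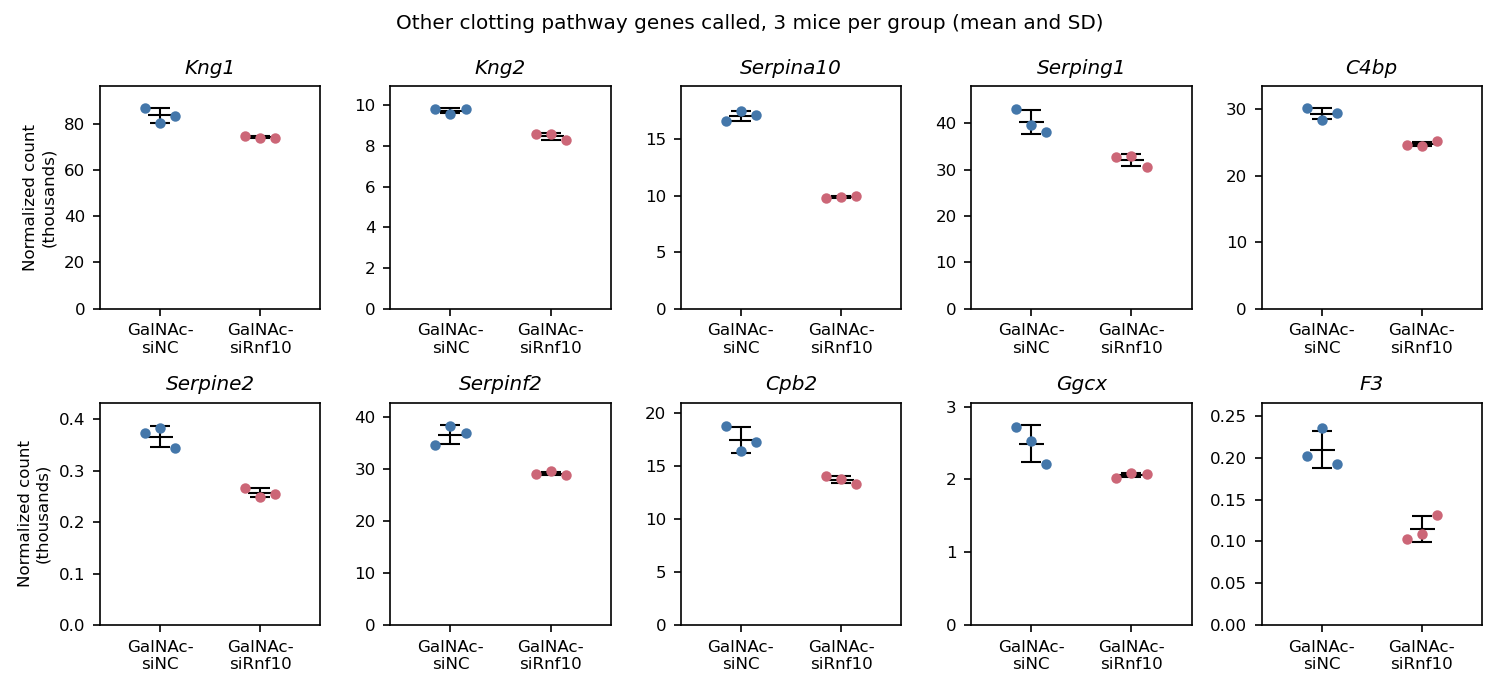
Normalized counts, divided by 1000, of the 10 other clotting pathway genes that were called, with 1 point per mouse and the mean and SD of each group in black; each vertical axis starts at 0. In every panel the 3 GalNAc-siRnf10 mice lie under the 3 GalNAc-siNC mice.

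Markers of liver cell types were read beside these results. Over all tested genes 6.71% were called higher and 7.28% lower. Among genes averaging 1000 normalized counts or more, 25.7% were called in either direction. In a list of 5 to 7 tested genes, a count of 1 or 2 called is not set apart from these shares. The hepatocyte markers were abundant in every library, and 5 of 7 tested rose and none fell, with a summed level of 1634043 to 1701933 normalized counts in the GalNAc-siNC mice and 2475916 to 2558176 in the GalNAc-siRnf10 mice. Alb, the albumin gene, rose with a log2 fold change of 0.64 (edgeR, adjusted p = 1.4e-07). Alb made up most of that sum, at a mean of 1159043 and 1805569 normalized counts, and Apoa1, the gene of apolipoprotein A-I, was not called (log2 fold change 0.084, edgeR, adjusted p = 0.641). None of the 7 Kupffer cell markers was called, with sums of 5171 to 5950 and 5455 to 5806. Of 7 sinusoidal endothelial markers 2 rose (sums 2604 to 2702 and 2822 to 2979), and of 7 stellate cell markers 2 rose (3553 to 3678 and 4108 to 4158). The stellate cell markers went both ways, with 3 log2 fold changes above 0, 4 below it and a median of -0.20. Of 5 cholangiocyte markers 1 fell, Spp1, with sums of 2033 to 2073 and 1122 to 1154. Spp1 made up most of those sums, at a mean of 1836 and 982 normalized counts. The other 4 were not called, though all 5 had a log2 fold change below 0. Of 9 blood and platelet markers 6 were tested and 1 fell, S100a9, with sums of 7328 to 9368 and 8300 to 9158, and the platelet marker Gp9 was at 0 in 4 of the 6 libraries. The part of these shifts in the results above was not tested.

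The genes whose profile over the 6 mice lay nearest to that of Plg were sought among 5751 genes averaging 500 normalized counts or more, by the root mean square difference of log2 ratios to the GalNAc-siNC mean. The nearest were Tmem214 at 0.0195, Rreb1 at 0.0207, Zer1 at 0.022, Pigr at 0.0238 and C1rl at 0.0251. Their log2 fold changes lay between -0.30 and -0.34, which follows from choosing them by distance to Plg. The other 9 genes had log2 fold changes further from that of Plg, so none was among them.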

How the data were processed

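Livers of 6 mice were sequenced, 1 library per mouse. Per the labels and the study's methods, the authors extracted RNA with TRIzol, prepared stranded mRNA libraries, sequenced them as paired ends on a DNBSEQ instrument and aligned reads to GRCm38 with HISAT2. The counting tool, annotation release and strand setting are not given in the sources used here. The deposited table holds raw counts per gene, not normalized, and 346 of its 55487 identifiers had no symbol. Where the strand was not used in counting, reads of opposite-strand neighbours cannot be told apart.

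Counts were tested with the edgeR quasi-likelihood test (edgeR 4.0.16, R 4.3.3): TMM scaling, filterByExpr by group, robust dispersion and treatment as the only factor, with Benjamini-Hochberg adjustment over 14046 genes. The biological coefficient of variation was 9.28%. Standard errors were taken from the log2 fold change and the F statistic. Alternatives used DESeq2 1.42.0, limma 3.58.1, other scalings and filters, correction for both GC content and gene length (14034 tested genes had a GC value), a replicate block and each mouse left out. The correction and the ratios to other genes were added after the data were seen. The fit was tested on simulated data. Permutation tests were exact and two-sided.

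A count of 3 in these libraries is 9.07e-06% to 1.12e-05% of the total, a floor that covers counting error only. Libraries of a group differed by more than sampling noise (chi-square per gene 3.71 to 20.5), so none was counted as a duplicate. The genes and the lists were chosen with earlier results of these data known. Named genes were all 10 genes of the set, Rnf10, every called gene of the other clotting and transcription factor lists and the 5 nearest profiles to Plg; Hnf4a, Cebpb, Proz, Pros1, Klkb1, Plat, Plau, Alb, Apoa1, Spp1, S100a9 and Gp9, the genes that did not pass the filter (Plaur, F13a1, Procr, F2rl3) and the overlapping genes Slc22a3 and Zbtb37 were named after their values were seen.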

Additional observations from a re-analysis of the deposited data

How the results depend on the processing

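Plg was called lower in all 16 alternatives. The number of the 10 genes called was 1 under the other scalings, filters and tools, and 2 with the correction for GC content and gene length, with or without the replicate block, where 1 was called higher: Proc at 0.17 in each (edgeR, adjusted p = 0.0044 and, with the block, 0.0104). Over all tested genes, 2445 were called with this correction and 2352 with the block as well, against 1965 as reported. With 1 mouse left out the count among the 10 genes was 1 to 2, with 0 to 1 higher and 1 to 2 lower. Over all tested genes it was then 1053 to 2864. The number without overlap was 2 as reported, beside 32.8% of all tested genes. It was 4 with library size alone, 1 without a filter, and 2 to 5 with 1 mouse left out. The share over all genes was not counted for these alternatives, and with 1 mouse left out fewer values can overlap. These numbers are therefore no result about the 10 genes.

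Signs changed only in genes that were not called. F2 was 0.0053 with the GC and length correction and 0.0054 with the block as well, F11 was -0.04 in both, F5 was 0.013 with limma voom, and Serpinc1 was -0.0034 with library size alone. With 1 mouse left out, the log2 fold change ranged from -0.093 to 0.051 for F5, -0.081 to 0.016 for F9, -0.11 to 0.019 for F12, -0.15 to -0.034 for F10 and 0.047 to 0.19 for Proc. F5 and F9 turned without the first GalNAc-siNC mouse, F12 without the second, and the causes were not tested. Ggcx lost its call without the second GalNAc-siNC mouse or any 1 GalNAc-siRnf10 mouse, Kng2 without any 1 GalNAc-siRnf10 mouse, and Kng1 without the third GalNAc-siNC mouse, without any 1 GalNAc-siRnf10 mouse, or with DESeq2.

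Over all genes 1965 were called, against 1053, 1128 and 1128 without each GalNAc-siRnf10 mouse and 2864 without the first GalNAc-siNC mouse. Replicate numbers name different mice, and deviations of same-numbered mice correlated at -0.00258, 0.0226 and -0.0328, so they were not treated as pairs. With the replicate block 1816 genes were called, Plg stayed called at -0.31, and the other clotting genes called numbered 10. With 3 mice per group, differences smaller than the intervals given were not resolved at this depth.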

Other observations

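Several of these genes lie next to each other on chromosome 8. F7 and F10 are 1498 bases apart and F10 and Proz 4237, and the log2 fold changes of the 3 genes were -0.087, -0.085 and -0.095, none of them called by edgeR. The log2 ratio of F7 to F10 within a library was -1.41 ± 0.035 in the GalNAc-siNC mice and -1.41 ± 0.03 in the GalNAc-siRnf10 mice (SD, n = 3 each, exact permutation p = 0.9). F11 lies 4657 bases from Klkb1, the gene of plasma prekallikrein, and their log2 fold changes were 0.057 and 0.10. The log2 ratio of F11 to Klkb1 was 0.18 ± 0.012 and 0.14 ± 0.047 (exact permutation p = 0.3).

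Other ratios within a library, also chosen after the values were seen, were those of an anticoagulant gene to the gene of its cofactor or target. The log2 ratio of Serpina10 to Proz was 0.79 ± 0.13 in the GalNAc-siNC mice and 0.089 ± 0.038 in the GalNAc-siRnf10 mice, and that of Proc to Pros1, the gene of its cofactor protein S, was 3.19 ± 0.26 and 3.49 ± 0.07 (SD, n = 3 each). The log2 ratio of Serpinc1 to F2 was -0.89 ± 0.051 and -0.78 ± 0.019. In each of these the groups did not overlap, and the exact permutation p was 0.1, the smallest possible.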
